A study of Saccharomyces cerevisiae with 8 samples.

Results

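The codon profiles of wild-type (WT) yeast ribosomes were compared between 2 classes of ribosome-protected footprints (RPFs), those of 21 nt and those of 28 nt. Members were chosen by strain and footprint class. They are the 4 WT libraries among the 8 libraries of the series, each with a value for all 61 sense codons. Every library used here is from BY4741, a laboratory strain of Saccharomyces cerevisiae, so no depleted strain enters the contrast. The 21 nt class has 2 libraries lysed with cycloheximide (CHX) and tigecycline (TIG), and the 28 nt class has 2 libraries lysed with CHX and anisomycin (ANS), each inhibitor at 0.1 g/l. Replicate 1 of the 21 nt class and both 28 nt libraries come from an earlier study and were re-analysed, whereas replicate 2 of the 21 nt class was newly prepared. The study describes cells moved from galactose and raffinose medium to glucose medium for 8 h. Whether the libraries of the earlier study were grown in this way is not given in the sources used here. Each footprint class has its own inhibitor pair, so footprint length and inhibitors cannot be told apart in any difference between the classes.

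In each elongation cycle, an aminoacyl-tRNA is delivered to the A site by eEF1A, the codon is read by the anticodon, the peptide bond forms and eEF2 moves tRNAs and mRNA by 1 codon. CHX blocks translocation, TIG blocks accommodation of the aminoacyl-tRNA, and ANS blocks peptidyl transfer. With CHX and TIG, 21 nt RPFs come from ribosomes whose small subunit has an empty A site (the pre-accommodation state). With CHX and ANS, 28 nt RPFs come from ribosomes that hold a peptidyl-tRNA in the A site before translocation (the pre-translocation state). The A-site codon is thus waiting for its tRNA in the 21 nt class and has already been read in the 28 nt class. The measurement is A-site occupancy, or pause score, the footprint density at a codon divided by the density over its coding sequence, so that 1 is the average. Such ratios are relative within a library: a higher value at some codons lowers the others, and an occupancy in 1 class says nothing of how many ribosomes are in that state. Read numbers are not in the table. Depth is therefore unknown, and the 2 replicates, described as biological, are the only measure of error.

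Codon and anticodon are set side by side for the codons on which the comparison turns. Each line gives a tRNA gene of the R64 genome as annotated by RefSeq, 5′ to 3′, as DNA and without its intron where it has one, and the capitals mark the anticodon. The tRNA-Arg gene TRR4 (chrXII:818609-818680, forward strand) is the only gene with its anticodon and reads CGG, the codon with the highest mean 21 nt occupancy. The tRNA-Leu gene YNCJ0029W (chrX:617919-618019, forward strand, 1 of 3 genes) reads CTA and, by wobble, CTG, the codon with the largest difference between the classes. The tRNA-Pro gene TRN1 (chrI:139152-139254, forward strand, 1 of 10) reads CCA and, by wobble, CCG, and the tRNA-Ala gene TGA1 (chrI:166267-166339, forward strand, 1 of 5) reads GCA and, by wobble, GCG. The tRNA-Trp gene YNCG0009C (chrVII:287350-287455, reverse strand, 1 of 6) reads the only tryptophan codon. The tRNA-Gly gene YNCB0005C (chrII:197629-197699, reverse strand, 1 of 16) reads GGC and, by wobble, GGT, which stood at the other end of the comparison.
tRNA-Arg, reads CGG: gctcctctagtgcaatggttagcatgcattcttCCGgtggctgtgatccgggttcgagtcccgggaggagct
tRNA-Leu, reads CTA and CTG: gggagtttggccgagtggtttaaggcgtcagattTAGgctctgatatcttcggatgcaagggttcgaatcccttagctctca
tRNA-Pro, reads CCA and CCG: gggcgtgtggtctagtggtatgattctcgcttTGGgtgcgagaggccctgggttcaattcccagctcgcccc
tRNA-Ala, reads GCA and GCG: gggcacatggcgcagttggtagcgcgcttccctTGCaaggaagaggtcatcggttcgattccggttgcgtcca
tRNA-Trp, reads TGG: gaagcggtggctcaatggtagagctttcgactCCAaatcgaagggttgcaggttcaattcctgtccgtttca
tRNA-Gly, reads GGC and GGT: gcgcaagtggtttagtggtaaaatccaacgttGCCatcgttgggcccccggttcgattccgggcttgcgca

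Occupancy of 21 nt RPFs was spread over a much wider range of values than that of 28 nt RPFs. The highest codon exceeded the lowest by 24.0-fold and 23.8-fold in 21 nt replicates 1 and 2, and by 4.60-fold and 4.50-fold in 28 nt replicates 1 and 2. The SD of log2 occupancy over the 61 codons was 1.04 and 0.978 in the 21 nt libraries, against 0.534 and 0.509 in the 28 nt libraries. Both 21 nt libraries thus lay above both 28 nt libraries in spread. An exact two-sided permutation test over the 4 libraries gave p = 0.3333, the smallest p that 2 against 2 allows. The mean occupancy weighted by the genomic frequency of each codon was 1.01 and 0.997 in the 21 nt libraries and 0.999 and 0.998 in the 28 nt libraries.

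Replicates of a class ranked the codons nearly alike, whereas the classes did not. Spearman's rho over the 61 codons was 0.944 between the 21 nt replicates and 0.962 between the 28 nt replicates. Between a 21 nt and a 28 nt library it ranged from 0.277 to 0.304. These correlations describe codons, which are not independent replicates. The SD between replicates, pooled over codons, was 0.207 on the log2 scale in 21 nt RPFs and 0.0778 in 28 nt RPFs. The 21 nt pair joins a library of the earlier study with a new one, whereas both 28 nt libraries are from the earlier study. Footprint class and origin of the libraries therefore cannot be told apart in these SDs. The replicates differed most at CAC in 21 nt RPFs, by 0.81 on the log2 scale, and at CGC in 28 nt RPFs, by 0.42.

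The difference between the classes was tested for each codon on log2 occupancy with limma, with p-values adjusted by Benjamini-Hochberg over the 61 codons and a threshold of 0.05. Of 61 codons, 49 passed (80.3%). Occupancy was higher in 21 nt RPFs at 24 codons (39.3%) and higher in 28 nt RPFs at 25 codons (41.0%). Over all codons, the median of the log2 difference, 21 nt minus 28 nt, was -0.08. The values of the classes did not overlap, with the 21 nt class higher, at 26 codons (42.6%) and, with the 28 nt class higher, at 28 codons (45.9%). The wider 21 nt spread enters these calls, since a codon low in both classes is lower in the wider one. With each library centred and divided by its own SD, 46 of the 49 codons kept their sign and 40 were still called. Scaling every library to the same mean occupancy gave 16 codons higher in 21 nt RPFs and 34 higher in 28 nt RPFs, and a fit that shares no spread among codons called 27. Within the 3 libraries of the earlier study, all 49 codons kept their sign. The error there comes from the 28 nt pair alone, so the calls of that fit are not used as support.

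**Figure D1:**
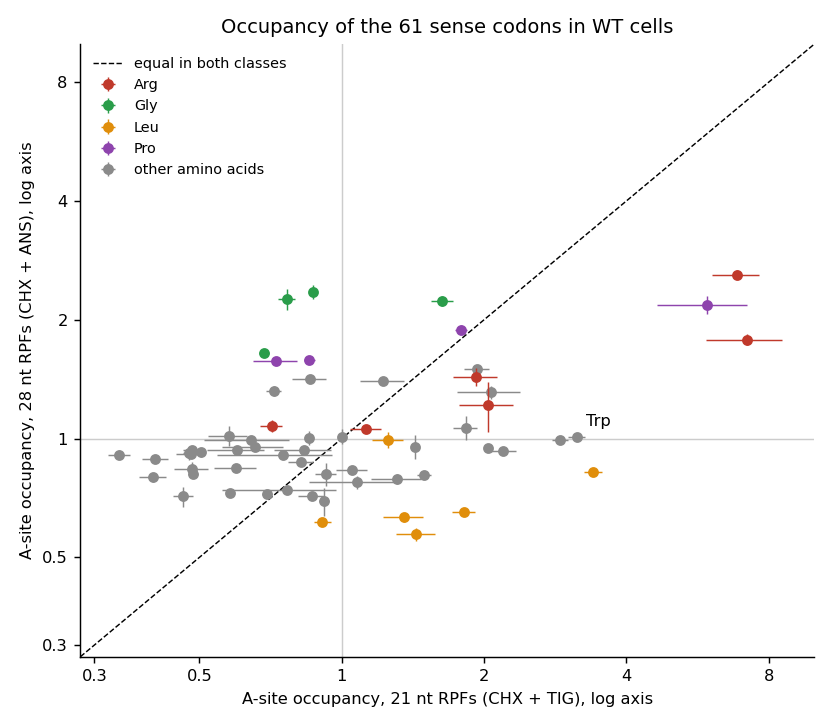
Mean A-site occupancy of the 61 sense codons in 21 nt RPFs (x axis) against 28 nt RPFs (y axis) of WT cells, both on log axes, with bars from the lower to the higher replicate (2 libraries per class) and the dashed line where both are equal. Leucine codons and tryptophan lie to the right of the line, all glycine codons to its left, and the points reach 7.22 on the x axis but only 2.60 on the y axis.

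CTG, a leucine codon, had the largest difference. Its occupancy was 3.55 and 3.25 in the 21 nt libraries and 0.808 and 0.834 in the 28 nt libraries. It ranked 4 of 61 in 21 nt RPFs and 45 in 28 nt RPFs, with a log2 difference of 2.05 (SE 0.14, limma adjusted p = 6.67e-15). CGG, the rarest sense codon of the genome, had the highest mean 21 nt occupancy, 8.53 and 5.90, against 1.84 and 1.72 in 28 nt RPFs. In 21 nt replicate 2, CGA (7.63) and CCG (7.21) were above it. The geometric means of the classes differed 3.99-fold for CGG (log2 SE 0.15, limma adjusted p = 1.32e-13) and 4.14-fold for CTG. In both cases the lower 21 nt library was well above the higher 28 nt library.

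TGG, the only codon of tryptophan, had an occupancy of 3.27 and 3.02 in 21 nt RPFs and of 1.01 and 1.02 in 28 nt RPFs (log2 difference 1.63, SE 0.14, limma adjusted p = 1.45e-12). It was thus at the average of the coding sequence in 28 nt RPFs and 5th of 61 in 21 nt RPFs. GCG, an alanine codon, behaved likewise, with 2.78 and 3.02 in 21 nt RPFs and 0.971 and 1.01 in 28 nt RPFs. The leucine codon CTC (log2 difference 1.48) and the proline codon CCG (1.41) completed the 6 largest differences in this direction, and the leucine codon CTT was at 1.32. CTC was at 1.92 and 1.71 against 0.659 and 0.643, and CTT was at 1.57 and 1.30 against 0.551 and 0.593, the lowest mean of all codons in 28 nt RPFs.

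At the other end stood glycine codons. GGC had an occupancy of 0.735 and 0.795 in 21 nt RPFs and of 2.39 and 2.12 in 28 nt RPFs, a log2 difference of -1.56 (SE 0.14, limma adjusted p = 4.58e-12). It ranked 39 of 61 in 21 nt RPFs and 3 in 28 nt RPFs. GGA was at 0.885 and 0.854 against 2.45 and 2.26 (log2 difference -1.44), and GGT was at 0.670 and 0.703 against 1.67 and 1.63 (log2 difference -1.27). All 3 were below 1 in both 21 nt libraries and above 1.5 in both 28 nt libraries. The asparagine codon AAC differed by a similar amount, log2 -1.43, but on another part of the scale. It was the lowest codon of all in 21 nt RPFs, at 0.356 and 0.320, and close to the average in 28 nt RPFs, at 0.886 and 0.934. The valine codon GTT (0.378 and 0.429 against 0.887 in each 28 nt library) and the proline codon CCA (0.804 and 0.648 against 1.59 and 1.55) completed the 6 largest differences in this direction.

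The ends of the ranking were mostly occupied by different codons. In 21 nt RPFs the 5 highest means, from 7.22 to 3.14, were those of CGG and CGA of arginine, CCG of proline, CTG of leucine and TGG of tryptophan. The 5 lowest, from 0.338 to 0.474, were those of AAC of asparagine, ATT and ATC of isoleucine and GTT and GTC of valine. The 5 highest 28 nt means, from 2.60 to 2.18, were those of CGA of arginine, GGA, GGC and GGG of glycine and CCG of proline. The 5 lowest, from 0.572 to 0.693, were those of CTT and TTA, TTG and CTC of leucine, and TCA of serine. Among the 10 highest of each class, 3 codons were shared, the arginine codons CGA and CGG and the proline codon CCG. Among the 10 lowest, 1 was shared, the isoleucine codon ATC.

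Each class was also compared with 1, the average of the coding sequence. In 21 nt RPFs, 22 codons were above 1 (36.1%) and 24 were below (39.3%) by limma with an adjusted p under 0.05. In 28 nt RPFs, 17 were above (27.9%) and 26 were below (42.6%). These calls rest on the spread shared among codons, since an ordinary model called 0 in either class after adjustment (18 and 26 codons at an unadjusted p under 0.05). Above 1 in both classes were 9 codons, which are 40.9% of the 21 nt list and 52.9% of the 28 nt list. They were ACG of threonine, CCC and CCG of proline, GGG of glycine, GTG of valine, and AGG and CGA with CGC and CGG of arginine. Above 1 in 21 nt RPFs and below 1 in 28 nt RPFs were 6 codons, of which 4 encode leucine (CTC and CTG, with CTT and TTG), beside CAG of glutamine and AGT of serine. The reverse held at 4 codons, GGC and GGT of glycine, CCA of proline and GTA of valine.

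Leucine is a branched hydrophobic residue with 6 codons, and all 6 were higher in 21 nt RPFs with the occupancies as deposited. Beside CTG, CTC and CTT, TTG was at 1.49 and 1.22 against 0.614 and 0.649 (log2 difference 1.10), and TTA was at 0.947 and 0.875 against 0.613 and 0.616 (log2 difference 0.57). CTA had the smallest difference of them, 1.35 and 1.16 against 1.04 and 0.945 (log2 difference 0.33, limma adjusted p = 0.027). It did not pass without 28 nt replicate 1 (log2 difference 0.40) or replicate 2 (0.26), where the error comes from the 21 nt pair alone. With each library divided by its mean, neither CTA (log2 difference 0.0028, adjusted p = 0.983) nor TTA (log2 difference 0.24, adjusted p = 0.0947) passed. The geometric mean of the 6 codons was 1.65 and 1.44 in 21 nt RPFs and 0.697 and 0.702 in 28 nt RPFs. Leucine ranked 4 of 20 amino acids in 21 nt RPFs and last in 28 nt RPFs.

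Glycine, which has no side chain, showed the opposite, with all 4 codons higher in 28 nt RPFs. The difference was smallest at GGG, at 1.72 and 1.55 in 21 nt RPFs and 2.30 and 2.17 in 28 nt RPFs (log2 difference -0.45, limma adjusted p = 0.00303). GGG did not pass without 28 nt replicate 1 (-0.41) or replicate 2 (-0.50), where the error comes from the 21 nt pair alone. GGG is read by 2 tRNA genes, and it was the only glycine codon above 1 in both classes. The geometric mean over the glycine codons was 0.930 and 0.927 in 21 nt RPFs and 2.18 and 2.03 in 28 nt RPFs, which put glycine 11th of 20 amino acids in 21 nt RPFs and first in 28 nt RPFs.

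Proline, a cyclic residue that is a poor substrate for peptide bond formation, was high in both classes as an amino acid but not codon by codon. Its geometric mean was 1.54 and 1.64 in 21 nt RPFs and 1.78 and 1.80 in 28 nt RPFs, ranking 3 and 2 of 20. The 4 codons lay close together in 28 nt RPFs, with means from 1.57 at CCA to 2.18 at CCG. In 21 nt RPFs they ran from 0.726 at CCA to 5.92 at CCG, an 8.01-fold range. CCG was higher in 21 nt RPFs, at 4.64 and 7.21 against 2.07 and 2.30 (log2 difference 1.41), whereas CCA and CCT (0.877 and 0.830 against 1.56 and 1.60, log2 difference -0.89) were higher in 28 nt RPFs. CCC did not pass the test (log2 difference -0.08, 95% confidence interval -0.35 to 0.20, limma adjusted p = 0.604), with 1.74 and 1.84 against 1.94 and 1.84. Both calls depend on the scaling. With the libraries divided by their SD, CCG no longer passed (adjusted p = 0.162) and CCC was higher in 28 nt RPFs (-0.89 in units of the SD, adjusted p = 0.0002). With the libraries divided by their mean, CCC also passed (log2 difference -0.41, adjusted p = 0.00544).

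Arginine, a basic residue, had the widest range of synonymous codons in both classes. In 21 nt RPFs, CGG exceeded AGA by 9.99-fold, and in 28 nt RPFs, CGA exceeded CGT by 2.46-fold. CGA, which is read through inosine paired with adenosine, was at 6.08 and 7.63 in 21 nt RPFs and at 2.54 and 2.67 in 28 nt RPFs, 2nd and 1st of 61. Its log2 difference was 1.39 (SE 0.14, limma adjusted p = 1.04e-10), but 0.14 in units of the libraries' SD, which did not pass (adjusted p = 0.510). CGC was at 2.31 and 1.77 against 1.39 and 1.04 (log2 difference 0.75). With the libraries divided by their SD, CGC did not pass (0.53 in units of the SD, adjusted p = 0.0595). AGG was at 2.13 and 1.72 against 1.36 and 1.51 (log2 difference 0.42, or -0.046 with the libraries divided by their SD). AGA, the most frequent arginine codon, was the only one higher in 28 nt RPFs, at 0.749 and 0.673 against 1.12 and 1.04 (log2 difference -0.60). CGT did not pass (log2 difference 0.08, 95% confidence interval -0.20 to 0.36).

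Averaged over synonymous codons on the log2 scale, 13 of 20 amino acids differed between the classes (65.0%) by limma with adjustment over the 20 amino acids. Higher in 21 nt RPFs were 7 (35.0%). Tryptophan differed most, by 1.63 on the log2 scale (SE 0.07, limma adjusted p = 0.000306), followed by leucine at 1.14 (SE 0.09, limma adjusted p = 0.000913) and arginine at 0.67 (SE 0.09, limma adjusted p = 0.00629). Arginine did not pass with the libraries divided by their SD (0.21 in units of the SD, adjusted p = 0.0843), and its log2 difference was 0.34 with the libraries divided by their mean. Serine (0.41), tyrosine (0.30), glutamine (0.28) and glutamate (0.27) differed by less. With each library divided by its mean, serine no longer passed (0.085, adjusted p = 0.257), and the other 3 changed sign. With synonymous codons weighted by their frequency, tyrosine (0.30, limma adjusted p = 0.059) and glutamate (0.16, limma adjusted p = 0.133) did not pass. Higher in 28 nt RPFs were 6 (30.0%). Glycine at -1.18 (SE 0.07) and asparagine at -1.09 (SE 0.06) differed most, each with a limma adjusted p of 0.000329, followed by valine, phenylalanine and methionine at -0.65 each and lysine at -0.50. Glutamate (adjusted p = 0.137) and phenylalanine (adjusted p = 0.0517) did not pass with the libraries divided by their SD, nor did methionine with the libraries centred on their medians (adjusted p = 0.0631). Proline did not pass (-0.17, 95% confidence interval -0.34 to 0.0032, limma adjusted p = 0.0753), nor did alanine, aspartate, cysteine, histidine, isoleucine or threonine. With either 28 nt library left out, all 13 amino acids kept their sign, and arginine was at 0.70 without replicate 1 and 0.64 without replicate 2. The error of these fits comes from the 21 nt pair alone, which had the larger SD between replicates, and fewer amino acids passed. A fit without shared spread called 6.

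**Figure D2:**
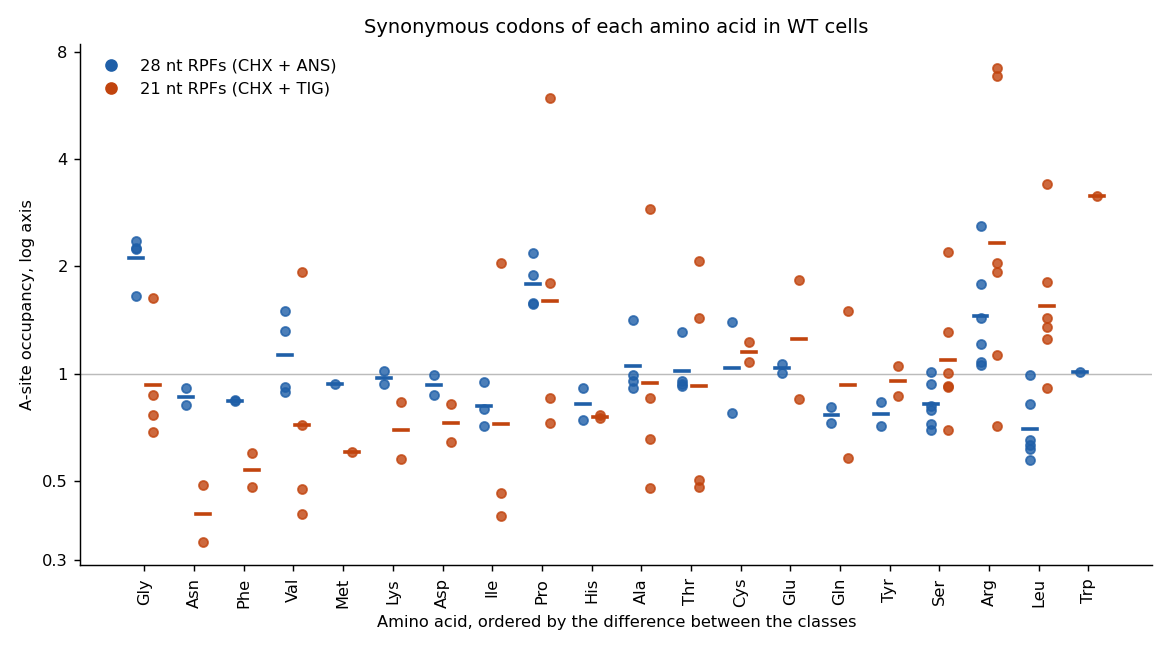
A-site occupancy of each codon (points, mean of 2 libraries, log axis) and the geometric mean of its amino acid (bars) in 28 nt RPFs (blue) and 21 nt RPFs (orange), with amino acids ordered by the log2 difference from glycine (-1.18) to tryptophan (1.63). The orange points of arginine span 9.99-fold and its blue points 2.46-fold, while those of cysteine and histidine spread farther in blue.

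The variance of log2 occupancy was then divided into a part between amino acids and a part among synonymous codons. Between amino acids lay 44.7% and 38.1% of the variance in the 21 nt libraries and 77.0% and 76.2% in the 28 nt libraries. Codons of 1 amino acid therefore resembled each other more in 28 nt RPFs. Both parts were larger in 21 nt RPFs in absolute terms. The SD of the amino acid means was 0.762 and 0.670 against 0.417 and 0.395, and the SD of the deviations from them was 0.933 and 0.931 against 0.310 and 0.301. The share again separated the classes without overlap (exact two-sided permutation p = 0.3333, the smallest possible). Adjusted for the number of amino acids, the share was 19.0% and 9.35% in 21 nt RPFs and 66.3% and 65.1% in 28 nt RPFs.

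**Figure D3:**
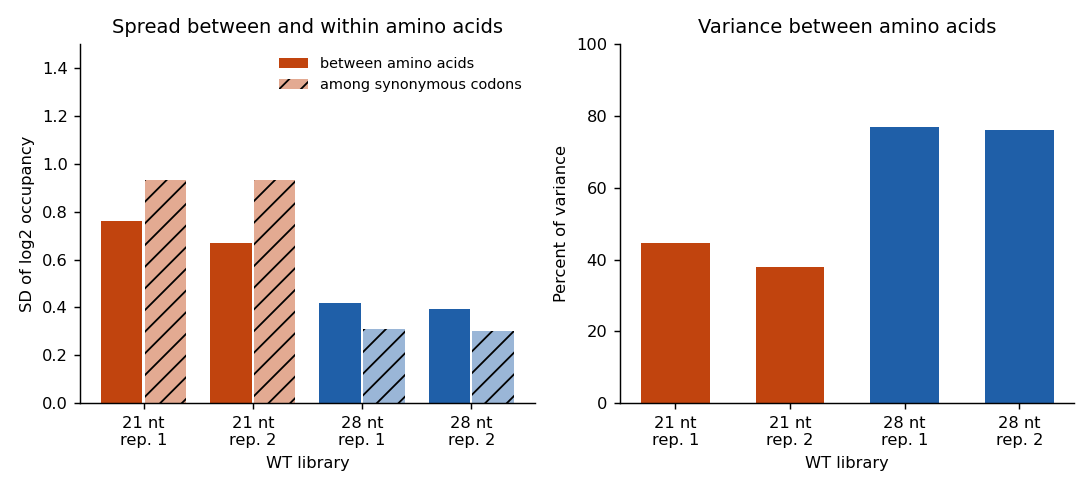
Left, SD of log2 occupancy between amino acid means (solid) and among synonymous codons around them (hatched) in each of the 4 WT libraries. Right, the percent of the variance of log2 occupancy that lay between amino acids, which was 44.7 and 38.1 in 21 nt RPFs (orange) and 77.0 and 76.2 in 28 nt RPFs (blue).

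To compare synonymous codons with each other, each codon was expressed as its log2 deviation from the mean of its amino acid. Of 59 codons with a synonym, 47 differed between the classes in this deviation (79.7%), 19 with a higher deviation in 21 nt RPFs (32.2%) and 28 with a higher one in 28 nt RPFs (47.5%). The 59 deviations are not independent. Where an amino acid has 2 codons, their deviations mirror each other, so 1 result counts once in each direction. This was so for asparagine, aspartate, cysteine, glutamine, glutamate and lysine. The largest differences upward were GCG of alanine (deviation 1.63 in 21 nt RPFs and -0.09 in 28 nt RPFs), CCG of proline (1.86 and 0.29), CGG of arginine (1.62 and 0.30), ATA of isoleucine (1.50 and 0.22) and GTG of valine (1.43 and 0.41). The largest downward were AGA of arginine (-1.70 and -0.42), CCA of proline (-1.14 and -0.19), ATT of isoleucine (-0.85 and -0.03), CTA of leucine (-0.31 and 0.50) and ACT of threonine (-0.93 and -0.12). All 5 of the upward group end in G or A, and 4 of them in G. The order of synonyms was partly shared between the classes. Spearman's rho of the deviations was 0.599 over 59 codons, against 0.205 for the means of 20 amino acids.

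Codons were next grouped by the third base, which pairs with the wobble base of the anticodon. Over all 61 codons, 39.3% were higher in 21 nt RPFs and 41.0% in 28 nt RPFs. Of 15 codons that end in G, 12 were higher in 21 nt RPFs, with a median log2 difference of 0.89 against -0.08 over all codons. The other 3, AAG of lysine, ATG of methionine and GGG of glycine, were higher in 28 nt RPFs. Of 14 codons that end in A, 6 were higher in 21 nt RPFs and 6 in 28 nt RPFs, close to the shares over all codons. Of 16 codons that end in C, 3 were higher in 21 nt RPFs and 8 in 28 nt RPFs, and the counts were the same for the 16 that end in T.

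The G-ending and A-ending synonyms of a codon box were then set against each other within each library. In 21 nt RPFs the G-ending codon was the higher one in both libraries in 11 of 13 pairs, with a median log2 ratio of 1.26. It was the higher one in 9 pairs in 28 nt RPFs and the lower one in 4, with a median of 0.12. The ratio was higher in both 21 nt libraries than in both 28 nt libraries in 11 pairs. Only for lysine was it lower (-0.18 and -0.87 for AAG over AAA in 21 nt RPFs, against 0.07 and 0.17), and for threonine the libraries overlapped. In 3 of the pairs the G-ending codon has no matching tRNA, and the tRNA that matches the A-ending codon, with a wobble uridine, reads both. Wobble readers were assigned only to codons without a matching tRNA, so an inosine tRNA that may also read CCA or GCA was not counted. CCG over CCA had log2 ratios of 2.53 and 3.48 in 21 nt RPFs and of 0.38 and 0.57 in 28 nt RPFs. GCG over GCA had 1.82 and 1.70 against -0.54 and -0.49, and CTG over CTA had 1.40 and 1.49 against -0.36 and -0.18. For alanine and leucine the G-ending codon was thus the higher one of the pair in 21 nt RPFs and the lower one in 28 nt RPFs, with the same tRNA, shown above, reading both. A higher ratio in 21 nt RPFs was not limited to these pairs. In 9 pairs each codon has its own matching tRNA, with a median log2 ratio of 1.10 in 21 nt RPFs and 0.15 in 28 nt RPFs. The ratio was higher in the 21 nt libraries in 7 of them, higher in the 28 nt libraries in 1 and overlapping in 1.

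**Figure D4:**
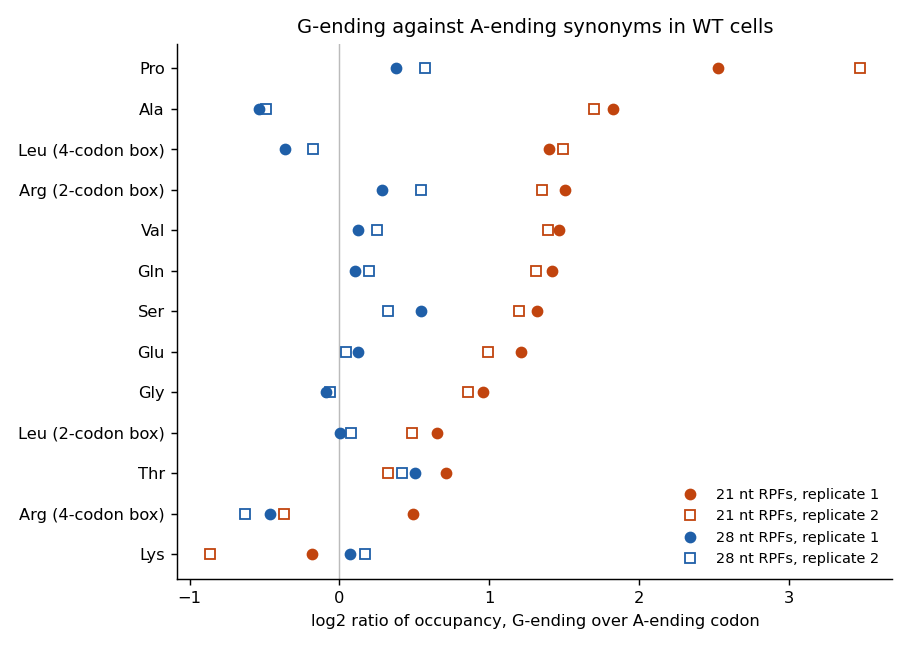
The log2 ratio of occupancy of the G-ending over the A-ending codon (x axis) in each of 13 codon boxes, for 21 nt replicates 1 and 2 (orange) and 28 nt replicates 1 and 2 (blue). The 21 nt points lie to the right of the 28 nt points in 11 boxes, and for lysine they lie to the left.

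The C-ending and T-ending synonyms gave a mixed result as a whole. The log2 ratio of C over T had a median of 0.21 in 21 nt RPFs and 0.18 in 28 nt RPFs over 16 pairs, and it was higher in the 21 nt libraries in 8, higher in the 28 nt libraries in 7 and overlapping in 1. Divided by the tRNA that reads them, a split made after the values were seen and not tested, the pairs fell apart. In 9 pairs a tRNA with a wobble guanosine reads C directly and T by wobble. The ratio was higher in both 28 nt libraries in 7 of these (asparagine, aspartate, cysteine, glycine, histidine, phenylalanine and AGC over AGT of serine) and higher in both 21 nt libraries in 2 (leucine and tyrosine). In the other 7 pairs the tRNA carries inosine at the wobble position. There the ratio was higher in both 21 nt libraries in 6 and overlapped for threonine. In 21 nt RPFs the mean log2 ratio was above 0 in all 7 inosine pairs, from 0.07 to 1.07, and in 4 of the 9 guanosine pairs, from -0.53 to 0.34. It was above 0 in 5 of the 7 and in 8 of the 9 in 28 nt RPFs.

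The number of genes for a tRNA is widely used as a stand-in for its abundance, which was not measured here. Of the 61 codons, 41 have a tRNA with the matching anticodon and 20 are read by wobble alone. Over the 41, Spearman's rho of occupancy with the number of matching tRNA genes was -0.764 and -0.747 in 21 nt RPFs and -0.266 and -0.219 in 28 nt RPFs. These values describe codons that share libraries, and no p is given. Codons whose tRNA has 1 gene were ACG of threonine, AGG and CGG of arginine, CAG of glutamine, CTC of leucine and TCG of serine. All of them but CTC end in G, so this group overlaps with the G-ending codons above. All 6 were higher in 21 nt RPFs (39.3% over all 61 codons), with a median log2 difference of 1.06 and 21 nt ranks from 1 to 17 of 61. Of the 10 codons with 11 to 16 genes, none was higher in 21 nt RPFs and 8 were higher in 28 nt RPFs (41.0% over all 61 codons). Their median log2 difference was -0.88, and their 21 nt ranks ran from 35 to 60. The 28 nt ranks of the same groups ran from 7 to 58 and from 3 to 54. Of the 14 codons with 2 to 5 genes, 6 were higher in 21 nt RPFs and 6 in 28 nt RPFs, with a median log2 difference of -0.10. Of the 11 codons with 6 to 10 genes, 4 were higher in 21 nt RPFs and 4 in 28 nt RPFs, with a median of -0.18. Both middle groups thus lay near the shares over all codons. The limits of these groups of gene numbers were set after the values were seen.

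**Figure D5:**
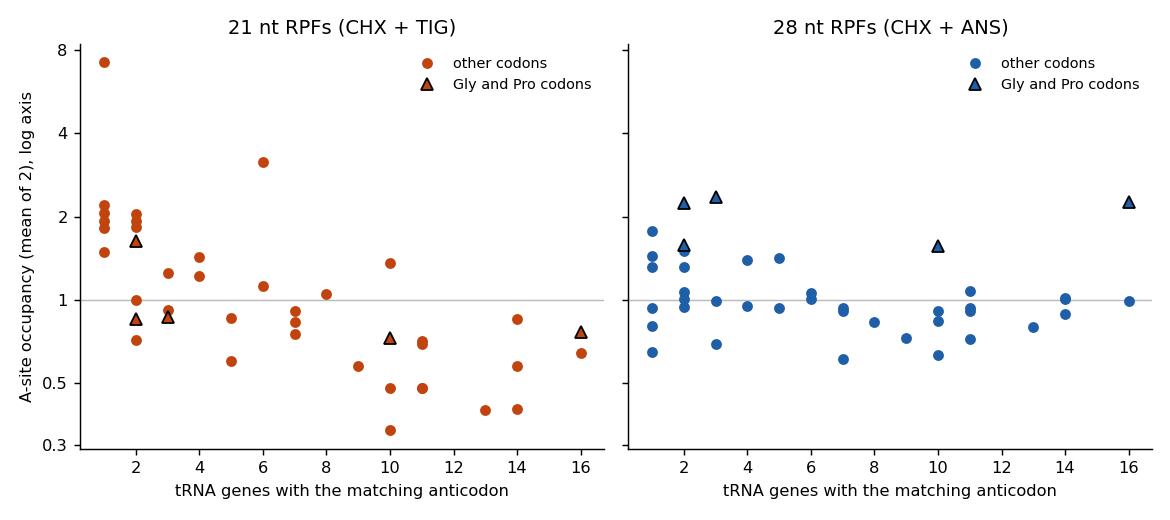
Mean occupancy (log axis, 2 libraries per class) of the 41 codons with a matching tRNA against the number of its genes, in 21 nt RPFs (left) and 28 nt RPFs (right), with glycine and proline codons as triangles. Occupancy goes down with gene number on the left (rho -0.764 and -0.747), and on the right the triangles lie above the other points at each gene number where they occur (2, 3, 10 and 16).

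Not every codon followed the gene number. TGG, with 6 genes, stood 5th of 61 in 21 nt RPFs. AAC, with 10 genes, was the lowest 21 nt codon, below all 10 codons with more genes. GGC, with 16 genes, a number that no anticodon exceeds, was the 3rd highest codon in 28 nt RPFs and the 39th in 21 nt RPFs. By genomic frequency the classes differed less. Spearman's rho with frequency over 61 codons was -0.621 and -0.628 in 21 nt RPFs and -0.446 and -0.430 in 28 nt RPFs. Of the 21 rarest codons, 13 were higher in 21 nt RPFs and 3 in 28 nt RPFs, and of the 20 most common, 3 and 13. Over all 61 codons the shares were 39.3% and 41.0%.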

How the data were processed

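A-site occupancy was analysed in 4 WT libraries, and 4 columns of another strain in the same table were not used. The authors cut fragments of 15 to 34 nt, removed adapters and rRNA reads, mapped unique reads to R64 with STAR (the submitters' processing notes name CASAVA 1.8 as well), kept 21 or 28 nt reads and set A-site offsets at start codons. They deposited the ratio of density in a 3 nt window at a codon to that of the coding sequence without 15 nt at each end. No ratio was 0, and no pseudocount or filter was used. The table gives no read numbers, so the precision is that of 2 replicates.

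Differences, 21 nt minus 28 nt, were fitted with limma 3.58.1 (R 4.3.3) to log2 occupancy of 61 codons, 20 amino acids and 59 synonymous deviations, each adjusted by Benjamini-Hochberg. The script was tested on simulated data. Further values came from Python 3.11.15, numpy 2.4.6, pandas 2.3.3 and scipy 1.17.1. Codon frequencies (5955 nuclear coding sequences) and 268 tRNA genes with 41 anticodons came from the RefSeq annotation of R64, later than the one the authors used. Anticodons were read from the gene sequences, and wobble readers follow standard wobble rules. Left out were 5 initiator genes and 2 of undetermined specificity.

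The members, gene lists and tests were chosen with earlier results of these data known. Codons were named by rule: the ends of each ranking, the 6 largest differences each way, all codons of arginine, glycine, leucine and proline, codons among the 10 highest of both classes, amino acids past the threshold, and the largest synonymous ranges and deviations. Others appear as members of a group. Alternatives were the replicate block, no moderation, a variance trend, class weights, a pseudocount of 0.1, other scalings, frequency weights and leaving out each library.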

Additional observations from a re-analysis of the deposited data

How the results depend on the processing

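With 2 libraries a class, the codon calls rest on the spread that limma shares among codons. Without moderation 27 codons passed (12 higher in 21 nt RPFs and 15 in 28 nt RPFs, 35 at an unadjusted p under 0.05), 6 amino acids (3 and 3) and 28 synonymous deviations (12 and 16). Against 1, an ordinary model passed 0 codons above and 0 below in either class, whereas limma passed 22 and 24 in 21 nt RPFs and 17 and 26 in 28 nt RPFs. At an unadjusted p under 0.05 the ordinary model had 7 above and 11 below in 21 nt RPFs, and 13 and 13 in 28 nt RPFs. All 49 codons called in the main comparison kept their sign under each alternative other than division by the library's SD, where 46 did.

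Dividing each library by its mean moved the median of all codons by -0.33, and the split of the 50 codons then called became 16 higher in 21 nt RPFs and 34 in 28 nt RPFs. The amino acids became 3 and 11, and glutamine (-0.047), glutamate (-0.059) and tyrosine (-0.026) changed sign, as did CGT (-0.25). CGT also changed sign without 21 nt replicate 1 (-0.023, and 0.19 without 21 nt replicate 2), and AGG with the libraries divided by their SD (-0.046).

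With 1 library left out, the class with a lone library is assumed to vary like the other. Without a 21 nt library, the error is that of the 28 nt pair, whose pooled SD between replicates was 0.0778 on the log2 scale. That of the 21 nt pair was 0.207, so the counts of these fits add no support to the calls. The number of codons called then ran from 37 to 55, of amino acids from 5 to 19 (2 to 8 higher in 21 nt RPFs and 3 to 11 higher in 28 nt RPFs) and of synonymous deviations from 32 to 47. The 5 amino acids came without either 28 nt library, whereas 18 were called without 21 nt replicate 1 (8 higher in 21 nt RPFs and 10 in 28 nt RPFs) and 19 without 21 nt replicate 2 (8 and 11). In the 3 libraries of the earlier study alone, without 21 nt replicate 2, all 49 codons of the main comparison kept their sign. In these libraries CTG differed by 2.11, CGG by 2.26, GGC by -1.61 and the leucine mean by 1.24.

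The replicate numbers come from the labels, and nothing pairs same-numbered libraries. Their deviations correlated at 0.127 over codons, from 2 pairs. With the number as a replicate block, 50 codons were called (24 and 26), 11 amino acids (4 higher in 21 nt RPFs and 7 in 28 nt RPFs) and 47 synonymous deviations. Glutamine, glutamate and tyrosine no longer passed in that fit.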

Other observations

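A larger share of the difference between replicates lay between amino acids in the 21 nt class than in the 28 nt class. Of the variance of the log2 difference between 21 nt replicates 1 and 2, 64.5% lay between amino acids, against 25.8% for the 28 nt replicates. These shares were not adjusted for the number of amino acids, which raises both. The mean of the histidine codons was 0.552 in replicate 1 and 0.964 in replicate 2, a log2 difference of -0.80, and both of its codons showed it. CAC was at 0.546 and 0.955 and CAT at 0.559 and 0.972. Cysteine differed by 0.46, methionine by -0.40 and aspartate by -0.39. In 28 nt RPFs the largest such difference was 0.16, for glutamate. Replicate 1 of the 21 nt class is the library of the earlier study and replicate 2 is the new one, so a difference between libraries and one between preparations cannot be told apart.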
